A study of Mus musculus with 12 samples.

Results

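The 10 genes described here are high in marginal zone B cells or are targets of the receptor Notch2: Cr2, Cd1d1, Cd9, Dtx1, Myof, S1pr3, S1pr1, Asb2, Plac8 and Hes1. They were chosen by symbol, and all 10 were found among the 28188 gene symbols of the deposited count table. The study sequenced poly(A)-selected RNA from splenic B cells and splenic dendritic cells, isolated from mice 12 weeks old. Each cell type came from the NOD and the NOD.Idd2 strain, which gave 4 groups of 3 libraries. NOD mice develop autoimmune diabetes spontaneously and served as the control strain, and NOD.Idd2 mice carry an Idd2 locus derived from B10 mice on the NOD background, so that all 4 groups share that background. Nothing in the labels says whether the 3 libraries of a group come from separate animals, so a p-value speaks for the spread between these samples alone, which may be technical. No library holds sorted marginal zone B cells, so that the naming of the genes could not be checked against that cell type.

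Marginal zone B cells sit at the border of the splenic white pulp, where they meet blood-borne antigen, and differ from the more abundant follicular B cells in surface receptors and position. Their formation depends on Notch2: a ligand such as Dll1 on stromal cells binds Notch2, proteases including Adam10 and the gamma-secretase complex release its intracellular part, and that part joins the DNA-binding protein Rbpj in the nucleus to turn on target genes. Notch2 also acts in splenic dendritic cells, where it is needed for the conventional dendritic cells that carry the adhesion protein Esam. Sphingosine 1-phosphate (S1P) receptors hold marginal zone B cells in place against the pull of the follicle.

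The genes lie on chromosomes 1 (Cr2), 3 (Cd1d1 and S1pr1), 5 (Dtx1 and Plac8), 6 (Cd9), 12 (Asb2), 13 (S1pr3), 16 (Hes1) and 19 (Myof), in GENCODE vM21 on GRCm38. None lies on chromosome 9. RefSeq promoter windows on GRCm38.p6, each of 300 bases around an annotated start, were matched for 7 of the 10 genes, 9 windows in all. Cd1d1, S1pr1 and Hes1 had no window, so their promoters were not searched. The core site of Rbpj, GTGGGAA or TTCCCAC on the other strand, was searched in the 9 windows. It was present in the windows of Cr2 and Cd9 and in 6.38% of all 32851 windows. The windows of Cr2 (chr1:195176670-195176969, minus strand) and Cd9 (chr6:125494711-125495010, minus strand) are shown because they hold the letters, which are in capitals, and that of Dtx1 (chr5:120711620-120711919, minus strand) because Dtx1 differed between the strains in dendritic cells.
Cr2: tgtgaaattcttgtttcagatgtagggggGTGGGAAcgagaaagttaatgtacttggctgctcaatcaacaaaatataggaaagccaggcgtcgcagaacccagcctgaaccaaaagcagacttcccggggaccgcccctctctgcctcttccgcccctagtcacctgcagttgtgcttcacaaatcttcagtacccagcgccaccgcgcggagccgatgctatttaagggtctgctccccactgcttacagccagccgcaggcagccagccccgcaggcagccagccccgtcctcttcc
Cd9: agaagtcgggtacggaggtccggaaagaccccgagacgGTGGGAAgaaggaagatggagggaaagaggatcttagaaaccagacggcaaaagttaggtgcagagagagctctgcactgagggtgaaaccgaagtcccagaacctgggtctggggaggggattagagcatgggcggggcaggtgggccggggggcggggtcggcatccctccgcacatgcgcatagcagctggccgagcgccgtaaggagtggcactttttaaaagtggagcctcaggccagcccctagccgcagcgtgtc
Dtx1: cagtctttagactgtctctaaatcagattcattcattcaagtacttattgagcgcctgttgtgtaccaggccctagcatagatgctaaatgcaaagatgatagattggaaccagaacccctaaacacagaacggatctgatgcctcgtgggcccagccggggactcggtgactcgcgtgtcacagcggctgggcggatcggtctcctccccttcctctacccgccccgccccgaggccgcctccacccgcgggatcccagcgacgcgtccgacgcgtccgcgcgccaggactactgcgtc

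The match lay at -221 to -215 from the start of Cr2 and at -212 to -206 from that of Cd9, in both on the strand of the gene. It is a match of letters and was not compared with any binding data.

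Depth was 40344883 to 44632276 counts in B cell libraries and 22769062 to 30337812 in dendritic cell libraries, apart from replicate 3 of NOD.Idd2 dendritic cells with 8663421. Libraries of 1 group always differed by more than sampling noise (chi-square per gene of at least 3.28). Replicate 3 of the B cells stood apart from replicates 1 and 2 in both strains, with a chi-square per gene of 41.2 to 47.1 against 7.93 and 8.48 between replicates 1 and 2. The 10 B cell identity genes, among them Cd79a of the antigen receptor, summed to 13648 to 14444 CPM (counts scaled by TMM-adjusted library size) in B cells and 511 to 572 CPM in dendritic cells. Esam was at 57.1 to 71.0 CPM in dendritic cells and at 0.070 to 0.28 CPM in B cells. The B cell libraries had 1564 to 2088 CPM of Xist and 0 counts of the Y-linked gene Ddx3y, and the dendritic cell libraries 1 to 4 counts of Xist and 239 to 306 CPM of Ddx3y. The libraries of the 2 cell types thus differed in the genes that mark sex, and sex and cell type cannot be told apart. In bulk samples like these, fewer cells of a type and less RNA per cell cannot be told apart either.

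Within B cells the 10 genes spanned a wide range of levels. Scaled by the length of their exons, the levels in NOD B cells were highest for Cr2, the complement receptor CD21/CD35, at 464 ± 42.2 CPM per kb (SD, n = 3). Plac8, a small cysteine-rich protein, followed at 180 ± 15.4 CPM per kb, and S1pr1, the S1P receptor that draws lymphocytes toward blood and lymph, at 165 ± 7.02 CPM per kb. These levels of Plac8 and S1pr1 differed by less than the larger SD. Dtx1, a ubiquitin ligase that is both target and regulator of Notch, was at 52.1 ± 3.30 CPM per kb, within the SD of Cd1d1, the lipid antigen-presenting molecule, at 47.6 ± 5.71. S1pr3, the S1P receptor typical of marginal zone B cells, was at 29.3 ± 2.34 CPM per kb and Hes1, a transcriptional repressor and a Notch target in many tissues, at 19.9 ± 0.595. The lowest levels were those of the tetraspanin gene Cd9, at 9.29 ± 0.874 CPM per kb, of Asb2, the substrate-binding part of a ubiquitin ligase that acts on filamins, at 8.42 ± 1.02, and of Myof, a membrane repair protein of the ferlin family, at 3.24 ± 0.484. The levels of Cd9 and Asb2 lay within each other's SD.

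**Figure D1:**
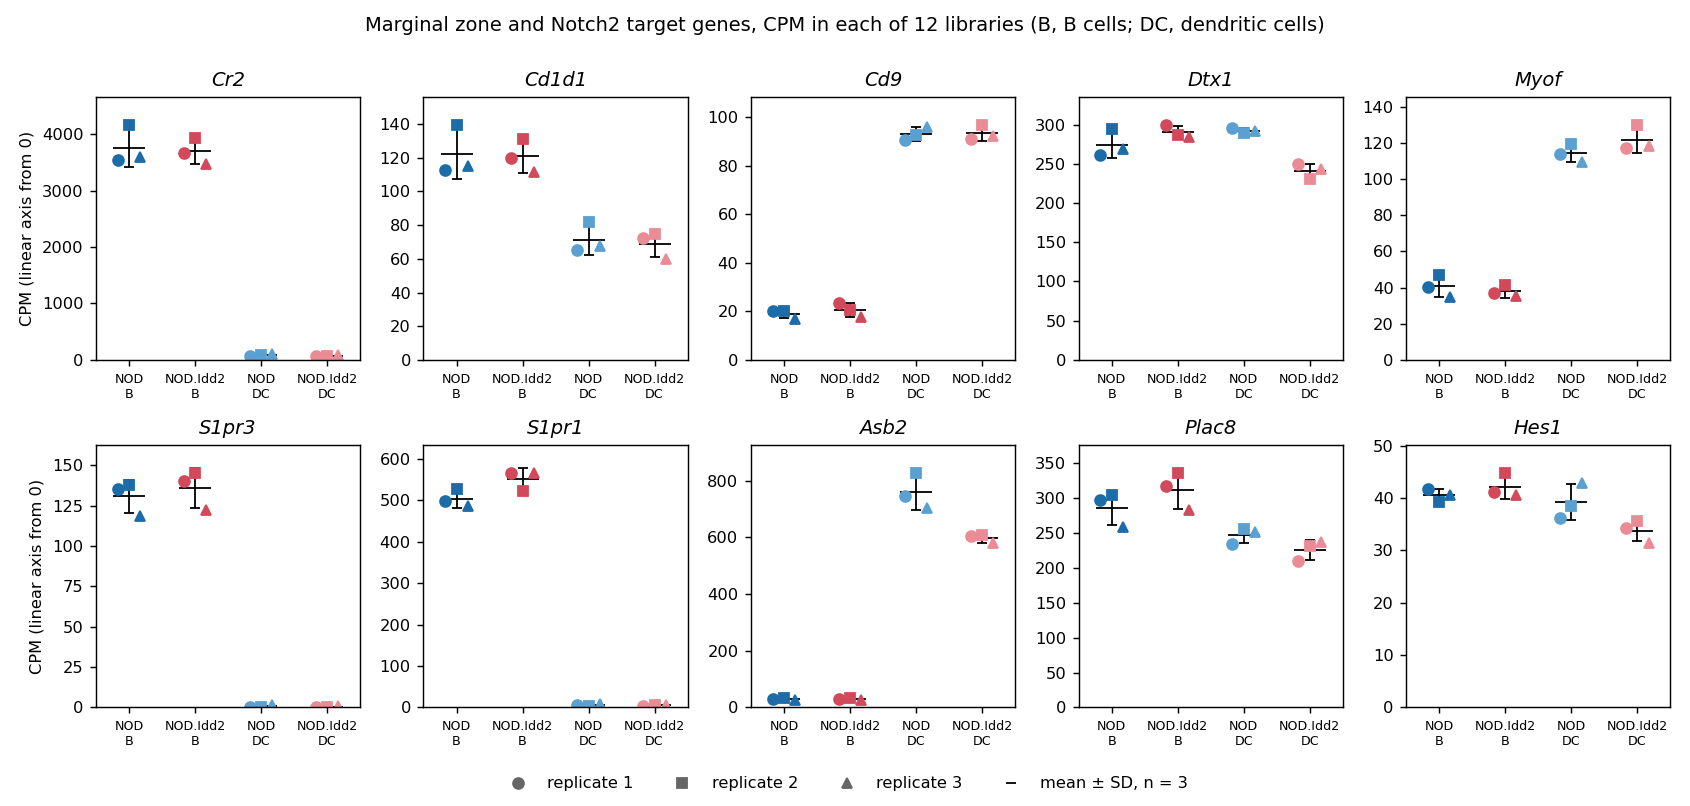
CPM (linear axes from 0) of each of the 10 genes in the 12 libraries, with 1 symbol per replicate number and the mean ± SD of each group of 3 as bars. The 2 strains overlap in B cells for all 10 genes, Cr2, S1pr1 and S1pr3 are near 0 on these axes in dendritic cells, and Asb2, Dtx1 and Hes1 are lower in every NOD.Idd2 dendritic cell library than in any of NOD.

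No difference between NOD.Idd2 and NOD B cells was detected for any of the 10 genes. In edgeR (quasi-likelihood test, Benjamini-Hochberg adjustment over all genes) 0 of the 10 passed an adjusted p of 0.05, against 0.16% of the 15011 genes tested. By DESeq2 and by limma-voom the count was also 0, as was that at an unadjusted p under 0.05. For all 10 genes the 2 strains overlapped, where 12.8% of tested genes did not. The 95% intervals of the log2 fold changes, NOD.Idd2 minus NOD, lay between -0.39 and 0.37, which is 0.762-fold to 1.29-fold. The median log2 fold change of the 10 was 0.05, with 7 above 0 and 3 below, and that of all tested genes 0.0066.

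The complement receptor gene Cr2 was at 3542, 4157 and 3589 CPM in replicates 1, 2 and 3 of NOD B cells and at 3674, 3932 and 3478 CPM in those of NOD.Idd2. Replicate 2 was the highest in both strains, and the groups overlapped. The log2 fold change was -0.03 (SE 0.08), with a 95% interval of -0.21 to 0.15 and an adjusted p of 0.999 by edgeR. Cd1d1 was likewise highest in replicate 2 of both strains, with 113, 139 and 115 CPM in NOD and 120, 131 and 111 CPM in NOD.Idd2 (log2 -0.02, SE 0.10). Reads of Cd1d1 can be shared with its near-identical neighbour Cd1d2, which was at 2.07 to 3.60 CPM in B cells, so that neither value is certain to stem from 1 gene alone.

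Of the S1P receptors, S1pr3 was at 135, 138 and 119 CPM in NOD B cells and at 141, 145 and 122 CPM in NOD.Idd2. Replicate 3 was the lowest in each strain (log2 0.05, SE 0.08, adjusted p = 0.972 by edgeR). S1pr1 was at 499, 527 and 485 CPM in NOD and at 566, 522 and 566 CPM in NOD.Idd2, so that 2 of 3 NOD.Idd2 libraries lay above every NOD library and the other lay below the highest NOD value. Its log2 fold change of 0.13 (SE 0.05) had the smallest unadjusted p of the 10, 0.0541, and an adjusted p of 0.784.

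The strains also overlapped for the Notch targets Dtx1, Hes1 and Asb2. Dtx1 was at 261, 294 and 269 CPM in NOD B cells and at 299, 287 and 285 CPM in NOD.Idd2, with overlap of the groups (log2 0.08, SE 0.06, adjusted p = 0.883). Hes1 was at 41.6, 39.2 and 40.6 CPM in NOD and at 41.1, 44.8 and 40.6 CPM in NOD.Idd2 (log2 0.06, SE 0.05, adjusted p = 0.921). Asb2, which Notch activates in several lineages, was low in B cells, at 31.4, 32.3 and 25.7 CPM in NOD and 30.1, 33.8 and 27.8 CPM in NOD.Idd2 (log2 0.03, SE 0.11).

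The remaining 3 genes showed the same overlap. Plac8 was at 297, 304 and 258 CPM in NOD B cells and at 316, 336 and 283 CPM in NOD.Idd2 (log2 0.12, SE 0.08, adjusted p = 0.875). With the replicate number as a block its adjusted p was 0.0965, the smallest of the 10 under that fit. Myof was at 40.5, 47.1 and 34.9 CPM in NOD and 36.8, 41.6 and 35.1 CPM in NOD.Idd2 (log2 -0.11, SE 0.12). Cd9 was at 19.9, 20.1 and 16.9 CPM in NOD and 23.3, 20.4 and 17.9 CPM in NOD.Idd2 (log2 0.11, SE 0.11).

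Several of the genes varied with the replicate number in both strains. Cd9, Myof, S1pr3, Asb2 and Plac8 were lowest in replicate 3 of both strains, 5 of 10 genes, and none was highest there. Among all 15011 genes tested in B cells 20.8% were lowest and 20% highest in replicate 3 of both strains. As a percentage of the mean of replicates 1 and 2 of the same strain, replicate 3 was at 84.6% in NOD and 81.8% in NOD.Idd2 for Cd9, at 86.9% and 85.5% for S1pr3, and at 86.0% and 86.7% for Plac8. For Asb2 the percentages were 80.5% and 86.9%, and for Myof 79.7% and 89.4%. Cr2 was at 93.2% and 91.5% and Cd1d1 at 91.4% and 88.7%, with replicate 1 of NOD slightly lower than its replicate 3 for both. The percentages for Dtx1 (96.8% and 97.1%), Hes1 (100.4% and 94.5%) and S1pr1 (94.6% and 104%) were the nearest to 100.

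Lists of related genes differed in where replicate 3 lay. Of 14 regulators of marginal zone development 0 were lowest and 9 highest in replicate 3 of both strains, among them Spib and Dock2, and of 14 S1P pathway genes likewise 0 and 9, among them Arhgef1 and Grk2. On a list of 8 further genes high in these cells, 5 were lowest in replicate 3 of both strains: Fcrl5, an Fc receptor-like protein, Mzb1, a chaperone of immunoglobulin M, the scavenger receptor gene Cd36, Cd1d2 and the RNA sensor gene Tlr3. Fcrl5 was at 213, 230 and 187 CPM in NOD and at 228, 228 and 205 CPM in NOD.Idd2, and Cd36 at 186, 177 and 158 CPM and at 205, 182 and 177 CPM. Ighm, on the same list, was highest in replicate 3 of both strains, at 7679 CPM in NOD and 6398 CPM in NOD.Idd2. Of 5 follicular B cell genes, Fcer2a (the low-affinity IgE receptor CD23), the chemokine receptor gene Ccr7 and Ighd were highest in replicate 3 of both strains. Fcer2a was at 1092, 1043 and 1169 CPM in NOD and at 1077, 1059 and 1240 CPM in NOD.Idd2. The ratio of Cr2 to Fcer2a was 3.24, 3.99 and 3.07 in NOD and 3.41, 3.71 and 2.80 in NOD.Idd2, lowest in replicate 3 and highest in replicate 2 of each strain.

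Replicate 3 also differed in genes that are not particular to a B cell subset. Psenen, a small subunit of gamma-secretase, was at 19.2, 17.3 and 6.10 CPM in NOD B cells and at 21.7, 18.4 and 6.64 CPM in NOD.Idd2. Of 26 Notch pathway genes tested, 4 were lowest in replicate 3 of both strains: Psenen, Rbpj, Aph1a and Numb. In the same list 9 were highest there, among them Notch2 and Ncstn. The shares over all genes were 20.8% lowest and 20% highest. Of the 10 B cell identity genes, Cd79a was lowest and 5 were highest in replicate 3 of both strains. What the shift of these genes has to do with that of the marginal zone genes was not tested.

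**Figure D2:**
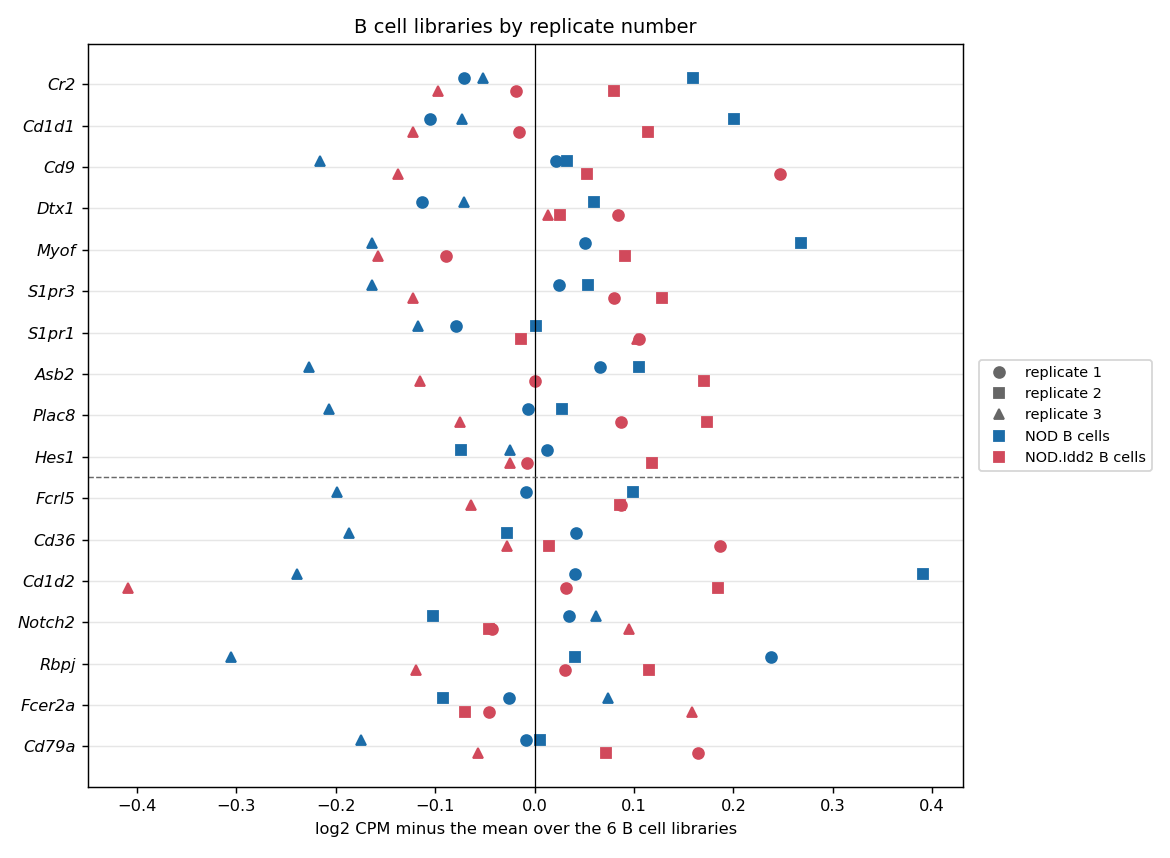
Deviation of log2 CPM from the mean over the 6 B cell libraries for the 10 genes (above the dashed line) and 7 reference genes, with 1 symbol per replicate number and 1 colour per strain. Replicate 3 is the lowest of its strain in both strains for Cd9, Myof, S1pr3, Asb2 and Plac8. The same holds for the reference genes Fcrl5, Cd36, Cd1d2, Rbpj and Cd79a. For Notch2 and Fcer2a it is the highest in both strains.

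The 5 genes with profiles most like Cr2 over the 6 B cell libraries were no marginal zone genes of these lists. Genes beyond the first 5 were not listed, so this does not speak to Cd1d1, which like Cr2 was highest in replicate 2 of both strains. Among 9782 genes with a mean of at least 5 CPM, the smallest Euclidean distances of centred log2 CPM to Cr2 were those of Slc25a40 (0.0536), Cep57l1 (0.0607), Rrp1b (0.0646), Tbc1d19 (0.0661) and Coq2 (0.0682). For Dtx1 they were Rcbtb2 (0.0396), Ift20 (0.0464), Zfp27 (0.0471), Pdlim2 (0.0507) and Pomk (0.0581).

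No gene of the Notch signalling machinery passed the strain test in B cells. Of 29 Notch pathway genes 26 were tested, and 0 passed by edgeR, DESeq2 or limma-voom, with 3 at an unadjusted p under 0.05, where 6.4% of all genes were. The strains did not overlap for Notch1, Maml2, Pofut1, Mib1 and Fbxw7, all lower in NOD.Idd2. Of all genes tested in B cells 12.8% did not overlap. Notch1 was at 40.6 ± 2.24 CPM in NOD against 36.6 ± 1.32 in NOD.Idd2. Notch2 itself was at 688, 626 and 701 CPM in NOD and at 652, 651 and 718 CPM in NOD.Idd2 (log2 0.0014, SE 0.06, adjusted p = 0.999 by edgeR). Adam10, the protease that cleaves Notch receptors, was at 260 ± 9.16 CPM in NOD against 263 ± 13.5 in NOD.Idd2, and Rbpj at 14.1 ± 2.61 and 14.2 ± 1.15 CPM. Of 9 further Notch target genes 5 were tested and 0 passed by any of the 3 tools, with Myc at 77.8 ± 5.12 and 76.6 ± 0.970 CPM and Il2ra, a chain of the interleukin-2 receptor, at 4.22 ± 0.903 and 5.19 ± 0.652 CPM. The same count was 0 of 14 tested for the S1P pathway, where Arhgef1, an exchange factor needed for marginal zone B cells, was at 861 ± 113 and 836 ± 75.7 CPM and the receptor kinase gene Grk2 at 673 ± 60.3 and 698 ± 39.4. It was 0 of 14 for regulators of marginal zone development, in which the transcription factor gene Spib was at 790 ± 50.5 CPM in NOD against 757 ± 22.5 in NOD.Idd2 and Dock2, an activator of Rac, at 673 ± 8.97 and 706 ± 23.8. At an unadjusted p under 0.05 the counts were 0 of 5, 1 of 14 and 1 of 14 for these 3 lists. Of the further Notch targets, Nrarp did not overlap between the strains, at 3.33 ± 0.0674 CPM in NOD against 3.92 ± 0.129 in NOD.Idd2.

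The 8 further marginal zone genes gave no call by edgeR, DESeq2 or limma-voom and none at an unadjusted p under 0.05, and the 5 follicular genes gave none by edgeR. Ighm was at 6847 ± 753 CPM in NOD against 5967 ± 384 in NOD.Idd2 (log2 -0.20, SE 0.09, adjusted p = 0.780), and the integrin gene Itgal at 309 ± 8.35 and 313 ± 8.55 CPM. Fcrl5 had a log2 fold change of 0.07 (SE 0.08, adjusted p = 0.955), Cd36 of 0.11 (SE 0.08, adjusted p = 0.873) and Cd1d2 of -0.13 (SE 0.22, adjusted p = 0.979). Fcer2a had one of 0.03 (SE 0.08). Ighd, the constant region of immunoglobulin D, was at 1938, 2048 and 2233 CPM in NOD and 2909, 2672 and 3519 CPM in NOD.Idd2 (log2 0.55, SE 0.11). The groups did not overlap, and the adjusted p was 0.364 without and 0.00047 with the replicate block. DESeq2 also called 1 of the 5 follicular genes, against 0 by limma-voom.

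In dendritic cells, 2 of the 10 genes were lower in NOD.Idd2, both of them Notch targets. By edgeR's quasi-likelihood test Dtx1 and Asb2 passed an adjusted p of 0.05, against 1.29% of the 14441 genes tested in either direction and 0.623% lower. DESeq2 and limma-voom also called 2 of the 10. Without any 1 of the 3 NOD.Idd2 libraries the count was 0, and without NOD replicate 2 it was 1. At an unadjusted p under 0.05 there were 3, the third being Hes1, against 11.3% of all genes tested. For Dtx1, Asb2 and Hes1 all 3 NOD.Idd2 libraries lay below all 3 NOD libraries, as did 9.41% of tested genes. The median log2 fold change of the 10 genes was -0.20, with 8 below 0, and that of all tested genes 0.00060.

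Dtx1 was at 296, 290 and 292 CPM in NOD dendritic cells and at 249, 231 and 243 CPM in NOD.Idd2. The highest NOD.Idd2 library was below the lowest of NOD, and the spread within each strain was small. The fold was 0.834 (log2 -0.26, SE 0.05, 95% interval -0.37 to -0.16), with an adjusted p of 0.0208 by edgeR. The call was lost without NOD replicate 2 (adjusted p = 0.0578) and without NOD.Idd2 replicate 1 (0.0723), 2 (0.189) or 3 (0.0881), with log2 fold changes of -0.28 to -0.23 in these fits.

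Asb2 was at 747, 828 and 704 CPM in NOD dendritic cells and at 603, 609 and 579 CPM in NOD.Idd2. All NOD.Idd2 libraries were below the lowest of NOD (fold 0.796, log2 -0.33, SE 0.06, 95% interval -0.46 to -0.20, adjusted p = 0.0195 by edgeR). The call was lost without NOD.Idd2 replicate 1 (adjusted p = 0.0984), 2 (0.114) or 3 (0.140) and in a fit of all 12 libraries (0.148). The annotated antisense gene Gm15523, which overlaps Asb2, was at 3.53 to 5.57 CPM in dendritic cells. The use of strand in counting is not given in the sources used here, so reads of that pair cannot be told apart. The same holds for Cd9 with Gm26728 and Gm28809, which reached 0.116 and 1.47 CPM at most in dendritic cells, and for S1pr3 with Gm32834, whose level was not analysed here.

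Hes1, the third of these Notch targets, was at 36.1, 38.5 and 42.9 CPM in NOD dendritic cells and at 34.3, 35.6 and 31.5 CPM in NOD.Idd2. The groups did not overlap, by a small margin, and the log2 fold change of -0.19 (SE 0.08) had an adjusted p of 0.347. Cr2 was at 68.0, 90.4 and 101 CPM in NOD and at 69.6, 69.8 and 82.5 CPM in NOD.Idd2, with overlap (log2 -0.22, SE 0.12, adjusted p = 0.555). It passed without NOD replicate 1 (log2 -0.37, adjusted p = 0.0488) and, narrowly, without a filter on low counts (0.0471).

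For the other 6 genes the strains overlapped in dendritic cells. Plac8 was at 235, 255 and 251 CPM in NOD and at 210, 231 and 236 CPM in NOD.Idd2 (log2 -0.12, SE 0.06, adjusted p = 0.509). Cd1d1 had 65.0, 81.7 and 67.5 CPM against 72.6, 74.6 and 60.0 CPM (log2 -0.02, SE 0.09). Cd9 had 90.4, 92.6 and 95.9 CPM against 90.9, 96.5 and 92.2 CPM (log2 0.02, SE 0.05), a 95% interval of -0.09 to 0.13.

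Myof was at 114, 119 and 110 CPM in NOD dendritic cells and at 117, 130 and 118 CPM in NOD.Idd2 (log2 0.11, SE 0.06, adjusted p = 0.503). The S1P receptor genes were low in both strains. S1pr1 was at 6.85, 3.55 and 8.94 CPM in NOD and at 4.62, 5.20 and 6.14 CPM in NOD.Idd2, with overlap (log2 -0.30, SE 0.27, adjusted p = 0.762). The level of S1pr3 was 0.37, 0.31 and 1.31 CPM in NOD and 0.49, 0.37 and 0.68 CPM in NOD.Idd2. There were 51 counts of S1pr3 over the NOD and 28 over the NOD.Idd2 libraries. The 95% interval of the S1pr3 fold change, -1.72 to 0.74 on the log2 scale, is wide, and a difference was not detectable at this depth.

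**Figure D3:**
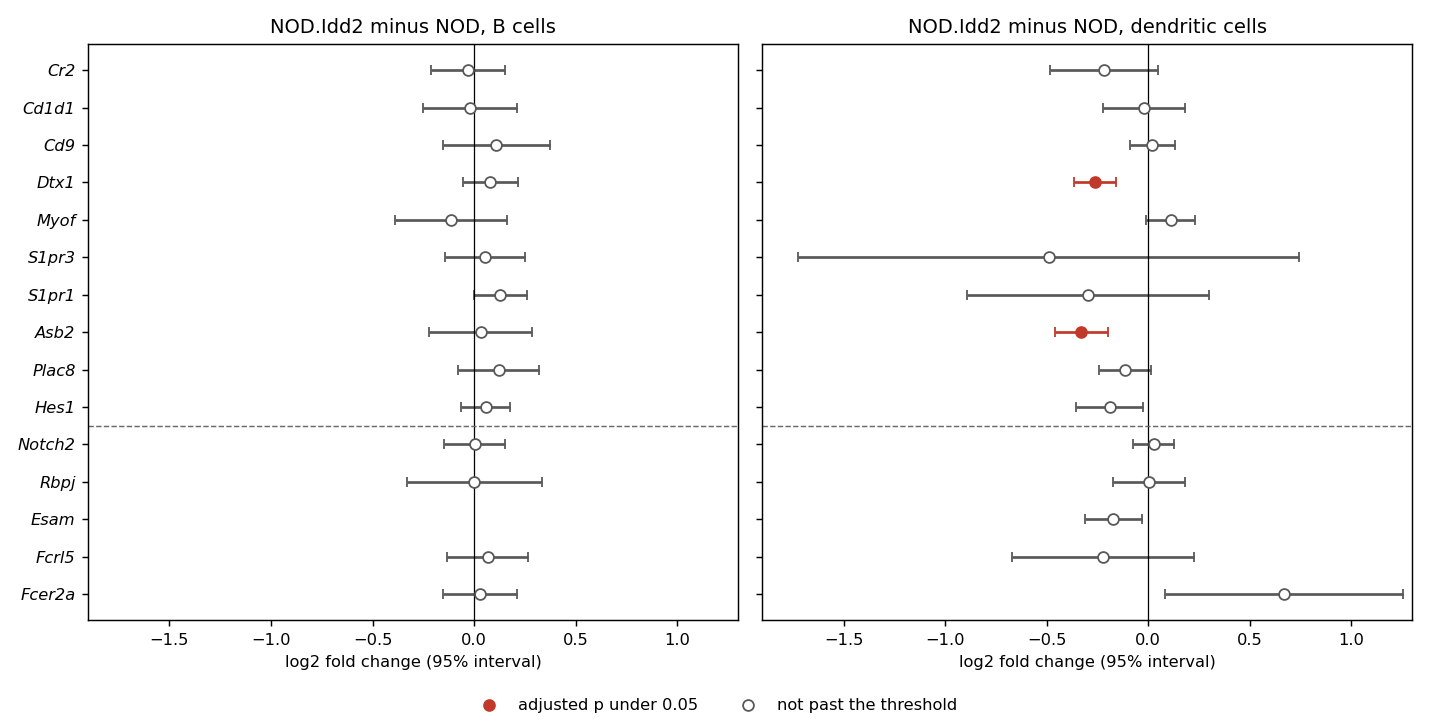
Log2 fold changes, NOD.Idd2 minus NOD, with 95% intervals from edgeR's quasi-likelihood fit, for the 10 genes (above the dashed line) and 5 reference genes in B cells (left) and dendritic cells (right). Dtx1 and Asb2 in dendritic cells are the filled points that passed the threshold, and Esam was too low to be tested in B cells.

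No difference was detected in dendritic cells for the receptor Notch2 or its nuclear partner Rbpj. Notch2 was at 545, 559 and 532 CPM in NOD and at 566, 545 and 535 CPM in NOD.Idd2 (log2 0.03, SE 0.05, 95% interval -0.07 to 0.13). Rbpj was at 49.8 ± 1.69 and 48.8 ± 6.59 CPM (log2 95% interval -0.18 to 0.18). Of 28 Notch pathway genes tested 0 passed by edgeR, DESeq2 or limma-voom, with 7 at an unadjusted p under 0.05, where 11.3% of all genes were. Of the 28 genes, 13 had a log2 fold change above 0 and 15 below. Itch, a ubiquitin ligase that acts on Notch, was at 595 ± 37.1 CPM in NOD against 528 ± 2.77 in NOD.Idd2 (log2 -0.15, adjusted p = 0.260). Notch1 was at 12.4 ± 3.17 and 17.6 ± 0.578 CPM. The strains did not overlap for Itch, Psenen, Furin and Lfng, lower in NOD.Idd2, and for Notch1, Notch3, Jag2 and Adam10, higher there. Of all tested genes 16.5% did not overlap. Of the other Notch targets 3 were tested and 0 passed by any of the 3 tools, with 0 at an unadjusted p under 0.05. Ccnd1, a cyclin of the G1 phase, was at 975 ± 91.2 and 929 ± 49.7 CPM, and Myc at 47.3 ± 4.37 and 50.6 ± 5.27.

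The adhesion gene Esam, which marks the Notch2-dependent dendritic cells, was at 63.6, 71.0 and 69.8 CPM in NOD and at 61.9, 57.1 and 60.9 CPM in NOD.Idd2. The groups did not overlap, but the log2 fold change of -0.17 (SE 0.06) had an adjusted p of 0.307 by edgeR. Clec4a4 and Cd4, the other 2 genes of that list, had log2 fold changes of -0.06 (SE 0.06) and -0.02 (SE 0.08). On this list 0 of 3 passed by edgeR, DESeq2 or limma-voom, with 1 at an unadjusted p under 0.05.

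Single markers of some other cell types differed between the strains in dendritic cells, on lists whose genes went both ways. Other lists, without a call, went mostly 1 way and are given below. By edgeR, against 1.29% of all genes tested, the lectin gene Mgl2 rose (log2 0.63, SE 0.07, adjusted p = 0.00075), 1 of 4 genes on its list of conventional dendritic cells, of which 2 were above and 2 below 0. On that list DESeq2 called 2 genes, limma-voom 1 and edgeR with the replicate block 2. Cd209a, of the same list, was at 287, 359 and 339 CPM in NOD and at 409, 436 and 372 CPM in NOD.Idd2, without overlap. The macrophage scavenger receptor gene Cd163 also rose (log2 0.77, SE 0.15, adjusted p = 0.0259), 1 of 10 tested on its list, with 4 above and 6 below 0. The adhesion gene Cadm1 fell (log2 -0.69, SE 0.09, adjusted p = 0.00212), 1 of 6 on the list of type 1 conventional dendritic cells, with 3 above and 3 below 0. The summed levels of these lists overlapped, at 1591 to 1785 CPM in NOD and 1699 to 1794 in NOD.Idd2 for that of Mgl2, 379 to 464 and 392.3 to 423 CPM for macrophages, and 723 to 870 and 801 to 849 CPM for that of Cadm1.

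The 8 monocyte genes summed to 696, 492 and 537 CPM in NOD dendritic cells and to 740, 735 and 731 CPM in NOD.Idd2, with no overlap. That sum was mostly Ccr2, at 306, 191 and 242 CPM against 355, 365 and 362 CPM, and Csf1r, at 364, 288 and 275 CPM against 364, 345 and 348 CPM. Of the 8 genes 6 were above and 2 below 0, and edgeR and DESeq2 called 0 and limma-voom 1, with 3 at an unadjusted p under 0.05. The B cell identity genes other than Cd22 summed to 121, 120 and 165 CPM in NOD and to 117 to 123 CPM in NOD.Idd2. The endothelial genes other than Pecam1 summed to 45.4 to 47.7 and 44.8 to 48.6 CPM, and both sums overlapped. Cd22, at 405 to 453 and 393 to 419 CPM, made up most of the B cell identity sum. Of the 10 B cell identity genes 9 had a log2 fold change below 0 (median -0.32). Above 0 were 8 of 8 natural killer cell, 10 of 11 T cell and 4 of 4 plasma cell genes tested, and 0 of 3 platelet genes. On the B cell identity, natural killer, T, plasma cell and platelet lists edgeR, DESeq2 and limma-voom called 0 genes. The part of any of these lists in the values of Dtx1 and Asb2 was not tested.

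The marginal zone, S1P, regulator and follicular lists gave no call between the strains in dendritic cells by edgeR, DESeq2 or limma-voom. At an unadjusted p under 0.05 there were 2 of the 8 further marginal zone genes, 0 of 14 S1P pathway genes, 3 of 14 regulators and 2 of 5 follicular genes, against 11.3% of all genes. Ighm was at 555 ± 70.2 CPM in NOD against 822 ± 279 in NOD.Idd2 (log2 0.58, SE 0.20, adjusted p = 0.266), and the integrin gene Itgb1 at 463 ± 2.85 and 480 ± 16.6 CPM. Fcrl5 was at 3.29 ± 0.463 and 2.89 ± 0.610 CPM, Cd36 at 65.3 ± 10.4 and 73.9 ± 6.45 CPM and Cd1d2 at 1.24 ± 0.236 and 0.946 ± 0.526 CPM. Gnai2, a G protein subunit used by S1P receptors, was at 729 ± 10.5 and 724 ± 4.44 CPM, and Grk2 at 627 ± 19.1 and 610 ± 24.7. The transcription factor gene Nfkb1 was at 934 ± 56.6 and 923 ± 32.9 CPM, and Dock2 at 613 ± 16.6 and 615 ± 25.7. Among the regulators the strains did not overlap for Relb (451 ± 31.7 and 390 ± 20.9 CPM), Tcf3 and Taok3, lower in NOD.Idd2, and for Foxo1, higher there. Of all genes tested in dendritic cells 16.5% did not overlap. Of the follicular genes Ccr7 was at 70.6 ± 9.48 and 62.0 ± 3.61 CPM and Fcer2a at 5.56 ± 2.79 and 8.79 ± 0.30 (log2 0.67, SE 0.27, adjusted p = 0.356).

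The difference between the strain effects of the 2 cell types was tested for each gene in a fit of all 12 libraries. By edgeR 0 of the 10 passed, against 0.109% of 16588 genes, with 4 at an unadjusted p under 0.05: Dtx1, Asb2, Plac8 and Hes1, against 8.22% of all genes. DESeq2 called 1 and limma-voom 0. For Dtx1 the strain effect in dendritic cells minus that in B cells was -0.36 on the log2 scale (SE 0.07, unadjusted p = 0.00026, adjusted p = 0.122). DESeq2 called this difference (adjusted p = 0.00226), and edgeR did so without replicate 2 of NOD B cells (0.0480). For Asb2 it was -0.38 (SE 0.13, adjusted p = 0.461).

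Between the cell types the 10 genes fell into 3 sets, whose levels are described first as the level in dendritic cells against that in B cells of the same strain. S1pr3, S1pr1 and Cr2 were far lower in dendritic cells, Cd1d1, Plac8, Hes1 and Dtx1 were within 2-fold in both, and Myof, Cd9 and Asb2 were higher in dendritic cells. In NOD 8 of the 10 passed by edgeR, 3 higher and 5 lower, against 76.4% of 16588 genes, 37.7% higher and 38.7% lower. In NOD.Idd2 all 10 passed, 3 higher and 7 lower, against 75.7%, 36.7% higher and 38.9% lower, and nothing is read from these counts.

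S1pr3 had the greatest difference of the 10, at log2 -7.60 (SE 0.25) in NOD and -8.20 (SE 0.28) in NOD.Idd2, dendritic cells minus B cells. S1pr1 followed at -6.29 (SE 0.23) and -6.74 (SE 0.24), and Cr2 at -5.45 (SE 0.14) and -5.65 (SE 0.15).

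Asb2 was 25.5-fold higher in dendritic cells than in B cells in NOD (log2 4.67, SE 0.11) and 19.6-fold in NOD.Idd2 (log2 4.29, SE 0.10). Cd9 was 4.90-fold and 4.55-fold higher, and Myof 2.79-fold and 3.22-fold, with adjusted p values by edgeR of 1.0e-10 and 1.7e-10 for Cd9 and 1.8e-08 and 5.7e-09 for Myof. Scaled by exon length, Asb2 had the highest level of the 10 in NOD dendritic cells, 214 ± 17.8 CPM per kb, followed by Plac8 at 155 ± 6.88. Then came Dtx1 at 55.5 ± 0.594, Cd9 at 45.5 ± 1.34, Cd1d1 at 27.8 ± 3.51 and Hes1 at 19.2 ± 1.70 CPM per kb. Cr2 at 10.6 ± 2.06 and Myof at 9.06 ± 0.385 CPM per kb differed by less than the SD of Cr2, and S1pr1 (2.12 ± 0.893) and S1pr3 (0.148 ± 0.126) were the lowest.

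Dtx1 and Hes1 had similar CPM in both cell types in NOD and were lower in dendritic cells in NOD.Idd2. Dtx1 had a log2 difference, dendritic cells minus B cells, of 0.09 (SE 0.05, adjusted p = 0.113) in NOD and of -0.27 (SE 0.05, adjusted p = 0.00034) in NOD.Idd2. In NOD it passed by DESeq2 (adjusted p = 0.0466) and without replicate 2 of B cells (0.0190). Hes1 had log2 differences of -0.05 (SE 0.07, adjusted p = 0.554) and -0.31 (SE 0.07, adjusted p = 0.0015). Plac8 was lower in dendritic cells in both strains (log2 -0.21, adjusted p = 0.0232, and -0.47, adjusted p = 0.00012). In NOD its call was lost without B cell replicate 1 (0.0681) or 2 (0.0868) or dendritic cell replicate 1 (0.145) or 3 (0.0756). Cd1d1 was lower by 0.78 (SE 0.11) in NOD, from 122 ± 14.7 CPM in B cells to 71.4 ± 9.01 in dendritic cells.

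**Figure D4:**
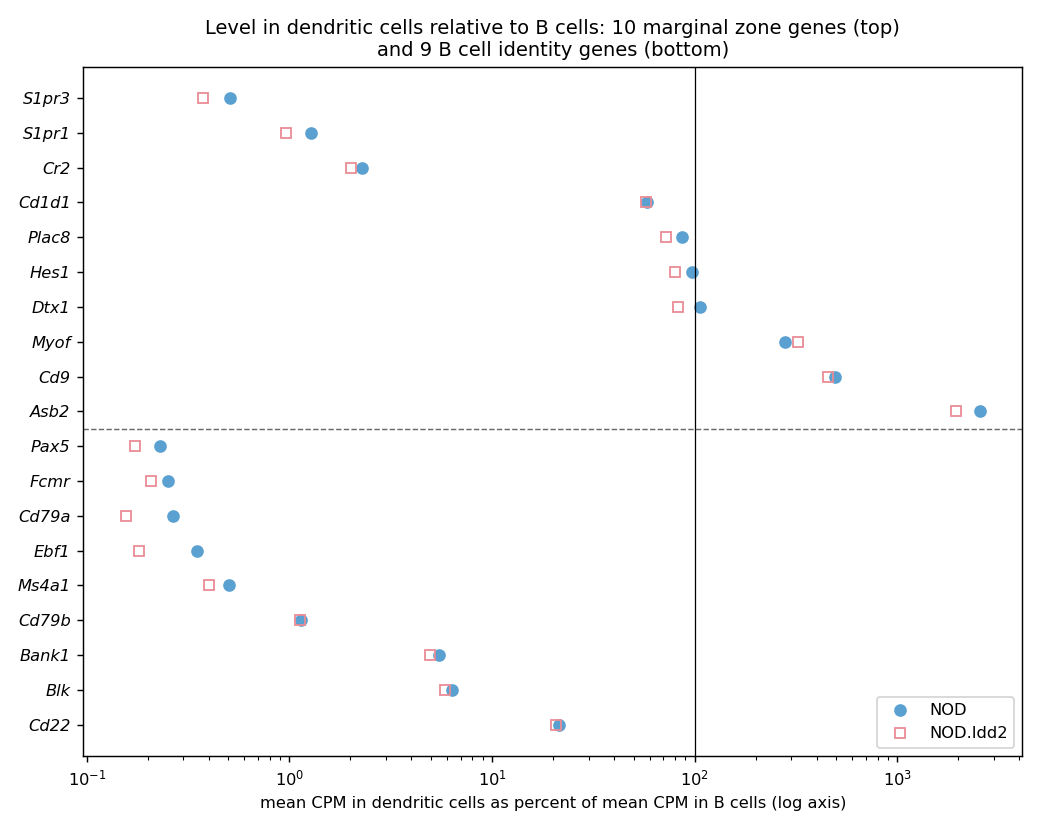
Mean CPM in dendritic cells as a percentage of mean CPM in B cells of the same strain, on a log axis, for the 10 genes (above the dashed line) and 9 B cell identity genes. S1pr3 and S1pr1 lie at 0.376% to 1.28%, Ms4a1 and Cd79b at 0.399% to 1.14%, and Asb2 lies at 2548% in NOD and 1955% in NOD.Idd2.

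The low values of 3 genes in dendritic cells were set beside those of B cell identity genes, which can show B cell RNA in the dendritic cell libraries. S1pr3 was at 0.507% of its B cell level in NOD and 0.376% in NOD.Idd2, and Ms4a1, the B cell antigen CD20, at 0.505% and 0.399%. The percentages for Cd79a were 0.266% and 0.156%. The NOD means of these genes were raised by replicate 3 of the dendritic cells. There S1pr3 was at 1.31 CPM against 0.37 and 0.31 in replicates 1 and 2, Ms4a1 at 22.5 against 9.06 and 8.21, and Cd79a at 7.32 against 3.16 and 1.93. S1pr1 was at 1.28% and 0.964%. Cr2 was at 2.29% and 2.0%, above these 2 identity genes and below Blk (6.35% and 5.87%), Bank1 (5.46% and 4.93%) and Cd22 (21.3% and 20.8%). The ratio of Cr2 to Fcer2a was 11.6 to 28.3 in NOD and 7.92 to 9.08 in NOD.Idd2 dendritic cells, above the 2.80 to 3.99 of the B cell libraries. Markers of follicular dendritic cells and stroma, of which 6 of the 8 listed genes were analysed here, summed to 7.19 to 11.1 CPM in the dendritic cell libraries. Most of that sum was Enpp2, at 4.79 to 8.30 CPM, and Clu, at 1.16 to 2.84 CPM. Cxcl13 was at 0 to 0.133 CPM, and Madcam1, Ccl21a and Ccl19 were also near 0. The part of these markers in the Cr2 value was not tested.

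The lists around these genes were compared between the cell types in NOD, where 76.4% of all genes passed, and the counts of 27 of 29, 5 of 5, 12 of 14 and 7 of 8 that follow are given as a description. Of 29 Notch pathway genes 14 were higher and 13 lower in dendritic cells by edgeR, among them the receptor gene Notch4 (log2 7.62, SE 0.15), the ligand gene Jag1 (9.12, SE 0.19), Maml2, a coactivator (-3.06, SE 0.07), and Itch (1.34, SE 0.05). Notch2 was lower by 0.30 (SE 0.05). Of the other Notch targets Ccnd1 was higher and the remaining 4 tested were lower, with Ccnd1 at log2 9.04 (SE 0.15), Nrarp, a feedback inhibitor of Notch, at -3.27 (SE 0.19) and Myc at -0.72 (SE 0.08). Hes5 was at 3.31 to 5.37 CPM in B cells and 0 to 0.154 CPM in dendritic cells. Of 14 S1P pathway genes 6 were higher and 6 lower. The lower ones included the receptor gene S1pr4 (log2 -4.81, SE 0.15), Cd69, whose protein holds S1pr1 off the surface (-4.55, SE 0.17), Klf2, an activator of S1pr1 (-2.97, SE 0.13), and the S1P exporter gene Spns2 (-4.43, SE 0.19). Of the 8 further marginal zone genes 2 were higher and 5 lower in dendritic cells, with Fcrl5 at log2 -5.99 (SE 0.13), Itgb1 at 2.07 (SE 0.05), Mzb1 at -8.86 (SE 0.26) and Ighm at -3.62 (SE 0.22).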

How the data were processed

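The authors deposited whole-number raw counts per gene symbol for 12 libraries. Per the labels' protocols RNA was extracted with Trizol and libraries made with a KAPA HyperPrep poly(A) kit. The submitters' processing notes name STAR (written as 0.12.2) and GRCm38. How reads were counted, on which annotation and whether by strand is not given in the sources used here. A second, normalized table was left unused.

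CPM values were computed with TMM factors over all 12 libraries. Genes were kept by filterByExpr (minimum count 10, minimum total 15). Strain comparisons used edgeR 4.0.16 (R 4.3.3), quasi-likelihood, on the 6 libraries of a cell type. Comparisons of cell types, and the interaction, used all 12 libraries in 4 groups. P-values were adjusted by Benjamini-Hochberg over all genes tested, with a threshold of 0.05. Alternatives were DESeq2 1.42.0, limma-voom (limma 3.58.1), RLE factors, 2 other filters, other sample sets, a replicate block, a term for B cell replicate 3 and leaving out libraries. The tests were run on simulated counts as a check of the code. Those counts held no replicate effect, so the check does not speak to the shift of B cell replicate 3. The genes, lists and naming rule (all 10 genes, called list members or the most abundant ones, and the nearest profiles) were chosen with earlier results of these data known. Ddx3y, Xist, Psenen and the genes with a replicate 3 pattern were named after their values were seen. Some genes of the lists are not reported here.

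Titles gave both strains replicate numbers 1 to 3. After subtracting group means, B cell libraries of the same number had correlations of 0.397 (replicate 1), 0.242 (2) and 0.656 (3). The value for NOD replicate 2 with NOD.Idd2 replicate 1 was 0.319. The labels state no pairing, so the main tests did not pair the libraries. The replicate number served as a block only in the alternative fits named so. In dendritic cells the correlations were 0.00643, 0.0427 and 0.0917. CPM per kb used the union of GENCODE vM21 exons.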

Additional observations from a re-analysis of the deposited data

How the results depend on the processing

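No alternative gave a call of any of the 10 genes between the strains in B cells, with or without the replicate block, both replicate 3 libraries or a term for replicate 3, although the calls over all genes there went from 24 to 156 with the replicate block, 122 by DESeq2, 74 with a replicate 3 term and 13 without NOD.Idd2 replicate 1. In dendritic cells the count of 2 fell to 1 in a fit of all 12 libraries and ranged from 0 to 3 when single libraries were left out. All-gene calls there were 63 without NOD.Idd2 replicate 2 and 700 with no filter, against 186. For the interaction the count of 0 rose to 1 by DESeq2, and it ranged from 0 to 1 with single libraries left out, while all-gene calls ranged from 7 to 114 against 18. In dendritic cells against B cells 7 to 9 of the 10 passed in NOD and 10 in NOD.Idd2. The replicate block changed no call of the 10 genes in any comparison, and the cause of these changes was not tested.

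Directions that turned were those of small or imprecise log2 differences. Asb2 in B cells was -0.0067 without both replicate 3 libraries. Cd1d1 was 0.0016 in dendritic cells by limma-voom, and its interaction was 0.0064 by limma-voom and 0.0050 with no filter. With single libraries left out, the strain effect in B cells ranged from -0.080 to 0.046 for Cr2, -0.087 to 0.079 for Cd1d1, -0.012 to 0.12 for S1pr3 and -0.067 to 0.092 for Asb2. In dendritic cells it ranged from -0.079 to 0.088 for Cd1d1, -0.0028 to 0.043 for Cd9, -0.83 to 0.47 for S1pr3 and -0.59 to 0.015 for S1pr1. The interaction ranged from -0.12 to 0.10 for Cd1d1 and -0.93 to 0.38 for S1pr3, and Hes1 in NOD dendritic cells against B cells from -0.082 to 0.041. The 51 and 28 counts of S1pr3 in dendritic cells limit its precision.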
